A study of Mus musculus with 6 samples.

Results

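Zscan4c, Zscan4d, Zscan4f, Zfp352, Tcstv1, Tcstv3, Usp17lc, Sp110, Arg2 and Tdpoz4 mark the two-cell-like state, and their RNA was compared here between wild-type mouse ESCs and ESCs that carry the Ube2d3-S138A mutation. Of these 10 genes, chosen by name as known markers, 8 have a row in the gene table, out of 37620 rows in all. The identifiers of Tcstv1 and Tcstv3 matched no row, and both genes were not analysed here. The cells were E14 ESCs of strain 129/Ola, grown in medium with 15% FBS. UBE2D3 is a ubiquitin-conjugating enzyme, and in the mutant cells the endogenous gene encodes an alanine in place of the serine that the name S138A refers to. PolyA RNA was read in 3 libraries of each genotype. The labels do not say whether libraries of a genotype are separate cultures, so p-values measure the spread between libraries, which may be technical. They also do not say which edited clone was used, so the mutation and a difference between clones cannot be told apart.

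ESC cultures hold a few cells at any time that pass through a state resembling the embryo just after its first division, when the zygotic genome becomes active. In that state cells transcribe the Zscan4 cluster, genes driven by MERVL retrotransposon ends, and several families of young gene copies, and they return to the ESC state after a while. The transcription factor DUX starts the program in mouse cells, whereas chromatin repressors such as TRIM28, the CAF-1 complex and the PRC1.6 complex keep it silent. In bulk RNA of the kind analysed here, fewer cells in the state and less RNA per cell in the state cannot be told apart.

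Promoter sequences are shown for 5 of the markers because they make visible how alike the Zscan4 copies are, and because near-identical copies bear on how far their counts can be separated. They come from RefSeq on GRCm38.p6, a later build than that of the counts, and hold 250 bases before and 50 after the annotated start of the gene. Capitals mark TATAAA, the TATA-box letters, and TGATTNAAT, the first letters of the longer motif that DUX binds.
Zscan4c (chr7:11005495-11005794, plus strand): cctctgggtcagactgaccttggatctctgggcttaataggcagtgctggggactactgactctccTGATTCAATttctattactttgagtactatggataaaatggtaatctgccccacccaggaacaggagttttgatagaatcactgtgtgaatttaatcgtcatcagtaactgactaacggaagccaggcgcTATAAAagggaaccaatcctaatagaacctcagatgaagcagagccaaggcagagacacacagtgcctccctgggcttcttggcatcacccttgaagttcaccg
Zscan4d (chr7:11166099-11166398, minus strand): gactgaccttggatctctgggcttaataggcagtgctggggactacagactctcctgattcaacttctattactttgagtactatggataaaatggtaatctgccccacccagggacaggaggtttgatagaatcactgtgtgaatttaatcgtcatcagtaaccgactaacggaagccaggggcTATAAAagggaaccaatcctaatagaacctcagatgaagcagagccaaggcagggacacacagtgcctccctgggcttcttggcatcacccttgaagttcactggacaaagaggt
Zscan4f (chr7:11397665-11397964, plus strand): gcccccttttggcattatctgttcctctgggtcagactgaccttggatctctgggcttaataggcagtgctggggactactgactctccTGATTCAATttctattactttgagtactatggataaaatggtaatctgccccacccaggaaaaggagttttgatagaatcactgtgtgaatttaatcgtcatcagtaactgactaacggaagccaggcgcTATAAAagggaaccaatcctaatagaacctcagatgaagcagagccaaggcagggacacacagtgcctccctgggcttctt
Usp17lc (chr7:103416446-103416745, plus strand): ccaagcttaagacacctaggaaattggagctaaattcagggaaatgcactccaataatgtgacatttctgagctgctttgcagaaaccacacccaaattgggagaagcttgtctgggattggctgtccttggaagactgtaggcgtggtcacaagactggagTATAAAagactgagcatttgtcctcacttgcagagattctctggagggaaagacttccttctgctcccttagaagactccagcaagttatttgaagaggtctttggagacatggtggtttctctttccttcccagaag
Zfp352 (chr4:90218570-90218869, plus strand): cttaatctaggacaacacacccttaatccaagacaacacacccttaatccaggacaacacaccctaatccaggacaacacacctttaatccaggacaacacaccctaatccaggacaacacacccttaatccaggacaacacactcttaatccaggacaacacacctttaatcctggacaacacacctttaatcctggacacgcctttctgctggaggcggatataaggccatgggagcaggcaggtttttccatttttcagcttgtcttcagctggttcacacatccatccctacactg

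Where they overlap, the promoters of Zscan4c and Zscan4f differ at 2 aligned bases (99.3% identity) and those of Zscan4c and Zscan4d at 8 (97.2% identity). The 3 Zscan4 windows carry TATAAA at 54, 65 and 31 bases before the annotated start in Zscan4c, Zscan4d and Zscan4f, a shift that follows from where the annotation places the start. Usp17lc carries TATAAA 88 bases before the start that RefSeq gives it. GENCODE M21 places the gene at chr7:103415072-103419880, so this whole window lies inside the gene as GENCODE draws it. The Zfp352 window holds a tandem repeat and has no TATAAA. Letters were searched on both strands of all 32851 promoters of full length. TATAAA is in 4 of the 7 markers with a promoter sequence (Zscan4c, Zscan4d, Zscan4f and Usp17lc) and in 13.62% of all promoters. CCAAT, the letters of the CCAAT box, is in 5 of the 7 and in 37.41% of all. TGATTNAAT is in Zscan4c and Zscan4f and in 0.72% of all promoters. Such a match describes the letters only.

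The copies were also compared as transcripts of GENCODE M21, by the share of 50-base words that occur in a single gene. That share is 14.5% for Zscan4c, 50.4% for Zscan4d and 4.7% for Zscan4f. The Zscan4f transcript shares 81.7% of its words with Zscan4c and 84.7% with the pseudogene Zscan4-ps2. Usp17lc has 55.3% of its words to itself and shares 41.5% with Usp17ld, and Tdpoz4 has 58.8% to itself. Sp110 has 46.2% to itself and shares 51.4% with Gm16026. Zfp352 and Arg2 share the least, with 92.9% and 100% to themselves. On GRCm38, however, Arg2 overlaps Vti1b and Sp110 overlaps G530012D18Rik on the opposite strand, and whether the counting used the strand is not given in the sources used here, so reads of such partners cannot be told apart. How the authors treated reads that fit several genes is not given in the sources used here, so the split among Zscan4c, Zscan4d and Zscan4f, between Usp17lc and its relatives, and between Sp110 and Gm16026 is uncertain. Levels are therefore compared only within a gene. On GRCm38 Zscan4c lies at chr7:11005745-11010547, Zscan4d at chr7:11161374-11166159 and Zscan4f at chr7:11397915-11402318, within 1 cluster. Usp17lc lies on the same chromosome at chr7:103415072-103419880, Zfp352 at chr4:90218820-90225702, Tdpoz4 at chr3:93796398-93797510, Sp110 at chr1:85576899-85598817 and Arg2 at chr12:79130777-79156301.

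The libraries held 33227593 to 37169770 counts, and 16023 genes had enough counts to be tested. Over all genes, 2 libraries were unlike the other 4, namely wild-type 3 and S138A C. The first principal component (57.2% of the variance) separated these 2 from the rest, and the second (25.6%) separated the genotypes. The median squared difference between wild-type 1 and wild-type 2 was 2.11 times sampling noise and that between S138A A and S138A B 3.02 times, whereas pairs that include wild-type 3 or S138A C gave 22.1 to 36.8 times. Ube2d3, the mutated gene, had 304.3 to 472.9 CPM (counts scaled to library size with TMM factors) in wild-type and 265.0 to 491.0 in the S138A libraries, with a log2 fold change of -0.06 (SE 0.26, adjusted p = 0.945, edgeR). The substitution cannot be read from counts, so this does not check the labels. The 8 ESC markers, among them Pou5f1 and Nanog, summed to 5172 to 5769 CPM in all 6 libraries. Single markers moved in different directions within that sum. Nanog had 616.3, 613.5 and 937.5 CPM in the wild-type libraries and 602.7, 601.8 and 774.6 CPM in the S138A libraries. Zfp42 had 942.7, 932.1 and 899.0 CPM against 875.1, 692.5 and 611.8 CPM, and Klf4 193.2, 192.5 and 229.3 CPM against 257.5, 215.8 and 344.1 CPM. Esrrb stayed at 636.5 to 668.3 CPM.

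In all 8 markers S138A A and S138A B held the highest levels, and wild-type 3 or S138A C the lowest. Zscan4c, a zinc finger gene of the family linked to telomere lengthening in ESCs, had 20.3, 20.2 and 9.59 CPM in wild-type 1, 2 and 3, and 52.8, 49.9 and 13.8 CPM in S138A A, B and C. Zscan4d, the copy transcribed in the embryo, had 18.2, 21.3 and 8.41 CPM in the wild-type libraries and 49.8, 51.7 and 9.89 CPM in the S138A libraries. Zscan4f had 9.41, 9.84 and 5.77 CPM in the wild-type libraries and 18.2, 26.9 and 8.03 CPM in the S138A libraries. For each of these copies S138A A and B lay above every wild-type library, and S138A C lay above wild-type 3 but below wild-type 1 and 2, so the genotypes overlap.

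Zfp352, a zinc finger gene active in early embryos, had 4.0, 4.37 and 1.28 CPM in the wild-type libraries and 12.2, 10.9 and 2.56 CPM in the S138A libraries. Usp17lc, of a family of deubiquitinating enzymes, had 5.99, 4.90 and 4.09 CPM in the wild-type libraries and 21.9, 21.1 and 5.12 CPM in the S138A libraries. Here S138A C lay between wild-type 1 and wild-type 2, and wild-type 3 was closer to the other wild-type libraries than for any other marker, at 0.751 of their mean. Tdpoz4, of a family with TRAF and POZ domains, had 4.0, 3.83 and 0.891 CPM in the wild-type libraries and 15.7, 13.5 and 1.56 CPM in the S138A libraries. S138A C held 0.107 of the mean of S138A A and B for this gene, the largest gap among the 8 markers.

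Arg2, the mitochondrial arginase, had 1.76, 1.8 and 0.55 CPM in the wild-type libraries and 5.45, 6.20 and 0.944 CPM in the S138A libraries. Its value in wild-type 3 rests on 21 counts, the fewest of any marker in any library, with an exact Poisson 95% interval of 13.0 to 32.1 that covers counting error only. Sp110, the gene of a nuclear body protein, had 1.48, 2.66 and 1.26 CPM in the wild-type libraries and 3.48, 3.72 and 0.809 CPM in the S138A libraries. It is the only marker of the 8 for which S138A C lay below all wild-type libraries, whereas S138A A and B lay above them.

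**Figure D1:**
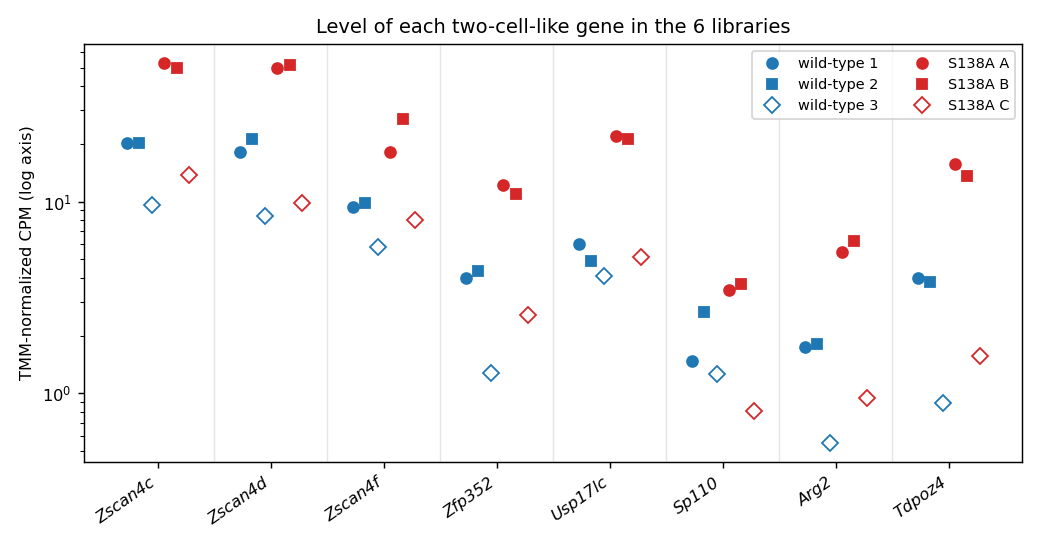
TMM-normalized CPM (log axis) of the 8 markers in each library, with wild-type in blue, S138A in red and the libraries that stood apart (wild-type 3 and S138A C) as open diamonds. S138A A and B lie above all wild-type libraries for each gene, and S138A C lies below the highest wild-type library for all 8.

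All 8 markers had positive log2 fold changes in S138A against wild-type ESCs, from 0.57 to 1.83 with a median of 1.32, where the median over all 16023 genes was 0.02. None of them passed an adjusted p of 0.05 in edgeR's quasi-likelihood test, which called 0% of all genes higher and 0% lower. At an unadjusted p under 0.05, 2 of the 8 were higher and 0 lower, beside 1221 higher and 1049 lower among all genes. Usp17lc had the smallest p of the 8, with a log2 fold change of 1.68 (SE 0.52, adjusted p = 0.249). Tdpoz4 had the largest fold change, 1.83 on the log2 scale (SE 0.87, adjusted p = 0.406). Zscan4c, Zscan4d and Zscan4f had 1.22 (SE 0.52), 1.22 (SE 0.62) and 1.09 (SE 0.44), with adjusted p of 0.363, 0.435 and 0.334. Zfp352 had 1.42 (SE 0.66, adjusted p = 0.397), Arg2 1.62 (SE 0.74, adjusted p = 0.385) and Sp110 0.57 (SE 0.58, adjusted p = 0.706). Every S138A library lay above every wild-type library in 0 of the 8 markers, beside 11.3% of all genes.

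With the final digit of the column names as a replicate block, 7 of the 8 markers were called higher, beside 10.7% of all genes called higher and 9.13% called lower. The pairing was taken from the column names and is not given by the sample labels. This fit assumes the same genotype effect in every pair. The log2 difference of S138A C from wild-type 3 was instead the lowest of the pairs for all 8 markers, and reversed for Sp110. Its SE and adjusted p therefore describe an average over unlike pairs. In that fit Zscan4c had a log2 fold change of 1.09 (SE 0.16, adjusted p = 0.00945), Zscan4d of 1.03 (SE 0.21, adjusted p = 0.0187) and Zscan4f of 0.98 (SE 0.18, adjusted p = 0.014). Zfp352 had 1.34 (SE 0.16, adjusted p = 0.00592), Usp17lc 1.48 (SE 0.31, adjusted p = 0.0198), Arg2 1.5 (SE 0.23, adjusted p = 0.0101) and Tdpoz4 1.66 (SE 0.22, adjusted p = 0.00746). Sp110, at 0.44 (SE 0.32, adjusted p = 0.363), was not called. A fit with a term for the library set (wild-type 3 with S138A C, or the other 4) called the same number, 7 of 8, beside 14.6% of all genes higher and 13% lower. The 4 other libraries alone, whose spread is that within the same close pairs, called all 8 higher, beside 15.3% higher and 14.3% lower, and without S138A C alone only Usp17lc was called (adjusted p = 0.0305, beside 0.361% of all genes higher). DESeq2 called 1 of the 8, Usp17lc (adjusted p = 0.0254), beside 2.62% of all genes higher and 2.35% lower.

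Because copies of a family can trade reads, their rows were also summed before the fit. The 3 Zscan4 rows together had 47.9, 51.4 and 23.8 CPM in the wild-type libraries and 120.8, 128.5 and 31.7 CPM in the S138A libraries, with a log2 fold change of 1.19 (SE 0.53, adjusted p = 0.378; with the block 1.04, adjusted p = 0.0116). The 6 Usp17l rows together had 19.2, 18.4 and 21.5 CPM in the wild-type libraries and 69.4, 67.9 and 28.0 CPM in the S138A libraries. As a family, with the pseudogene row Usp17le-ps included, Usp17l therefore did not overlap between genotypes, unlike Usp17lc alone. Among all genes taken singly, 11.3% had every S138A library above every wild-type library. The log2 fold change of the summed rows, 1.48, did not pass (SE 0.33, adjusted p = 0.192, and 0.0174 with the block). Tdpoz3 and Tdpoz4 together had 1.84 (SE 0.78, adjusted p = 0.357; with the block adjusted p = 0.00884). The summed Zscan4 fold change lay within the range of the 3 copies taken singly, which a sum of rows gives almost by construction.

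Paired by the final digit, the log2 CPM difference of S138A C from wild-type 3 was below that of the other pairs in all 8 markers. The median difference over the markers was 1.52 in log2 CPM between S138A A and wild-type 1, 1.38 between S138A B and wild-type 2 and 0.50 between S138A C and wild-type 3. Usp17lc was 3.66 times and 4.31 times as high in the first pairs and 1.25 times in the third. Zscan4d was 2.74, 2.43 and 1.18 times as high, and Zscan4c 2.60, 2.46 and 1.44 times. Zfp352 was the least uneven in this respect, at 3.06, 2.5 and 1.99 times. Sp110 was 2.34 and 1.40 times as high in the first pairs and 0.643 times in the third, the only reversal.

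The difference between the sets was tested as an interaction of genotype with library set in edgeR. Each genotype has 1 library in the smaller set, so the spread in this fit comes only from wild-type 1 against 2 and S138A A against B, pairs that differ by 2.11 and 3.02 times sampling noise. Its p-values therefore do not cover differences as large as those of wild-type 3 or S138A C from the rest, and the calls are a description of these libraries. With that limit the difference was called negative for 3 of the 8 markers, beside 1.8% of all genes with a negative difference called and 1.18% with a positive one. On the log2 scale the effect differed by -0.82 for Zscan4c (SE 0.13, adjusted p = 0.0248), by -1.13 for Zscan4d (SE 0.17, adjusted p = 0.0207) and by -1.66 for Usp17lc (SE 0.22, adjusted p = 0.0136). The estimates of the other 5 were also negative but did not pass, from -0.48 for Zfp352 (adjusted p = 0.354) to -1.44 for Sp110 (adjusted p = 0.169). The sets were defined from these data and not from the labels. That the genotypes differ less between wild-type 3 and S138A C was known before the test, so its calls are no independent support. Which technical or culture difference separates the sets was not tested.

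**Figure D2:**
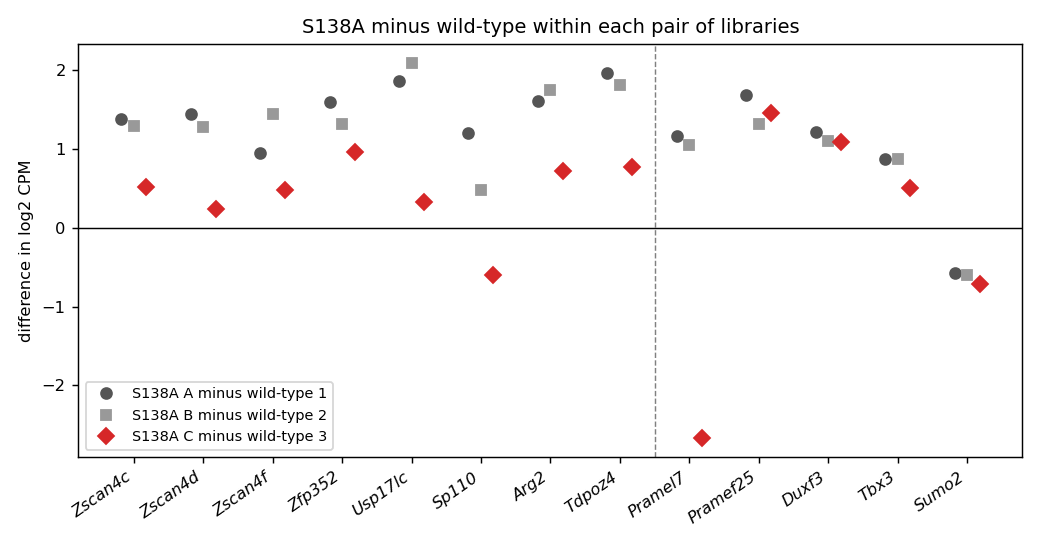
Difference in log2 CPM, S138A minus wild-type, within each pair of libraries that share a final digit, for the 8 markers (left of the dashed line) and for 5 other genes of the two-cell-like program and its regulators. For the markers the pair of S138A C and wild-type 3 (diamonds) is always the lowest, with Sp110 below 0, whereas Duxf3 and Pramef25 differ by about as much in all 3 pairs.

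The 8 markers followed each other closely over the 6 libraries. Their pairwise Pearson correlations of log2 CPM ranged from 0.779 to 0.996 with a median of 0.952 over 28 pairs. This description rests on 6 libraries of which 2 stood apart. Zscan4c, Zscan4d and Zscan4f are also near-identical copies that may share reads, which can raise the correlations among them. The mean log2 CPM of the 8 was 2.49, 2.60 and 1.37 in wild-type and 3.99, 4.03 and 1.8 in the S138A libraries. Among 13692 other genes with at least 1 CPM on average, Ncdn had the most similar pattern (r = 0.9991), a neuronal gene that had 39.7, 40.9 and 29.9 CPM in the wild-type libraries and 57.4, 58.4 and 34.4 CPM in the S138A libraries. Nt5e, the gene of the ecto-nucleotidase CD73, came closer in size, with 10.6, 10.00 and 4.25 CPM in the wild-type libraries and 28.9, 29.1 and 6.39 CPM in the S138A libraries (r = 0.9974). Fosl2 (r = 0.9973), Abcb5 (r = 0.9972, also a listed gene of the state), Baiap2 and Sesn2 (both r = 0.9963), Gm10696 (r = 0.9959) and ENSMUSG00000091880, to which no symbol was matched (r = 0.9987), complete the list. Gm10696 spanned a wide range, from 0.341 CPM in wild-type 3 to 6.46 CPM in S138A A, while Sesn2, a stress-response gene, ranged only from 132.7 to 242.7 CPM.

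**Figure D3:**
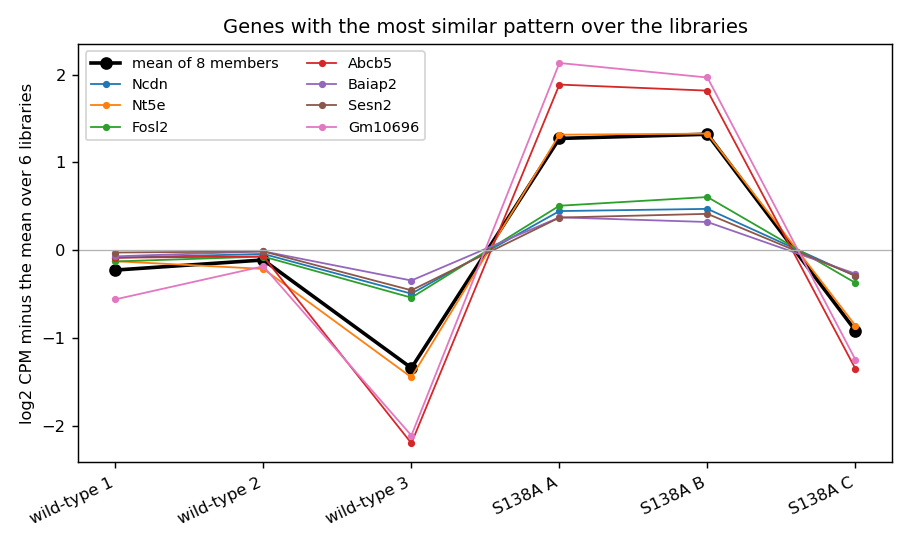
Log2 CPM minus the mean over the 6 libraries, for the mean of the 8 markers (black) and 7 of the 8 genes with the most similar pattern (the one without a symbol is left out), with lines joining the points of a gene. Wild-type 3 and S138A C are low and S138A A and B are high for every gene, and the range is wider for Abcb5 and Gm10696 than for Ncdn or Sesn2.

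Most other genes of the state had the same direction. Of 48 further names listed for it, 29 matched a row and 27 passed the filter. Among these 27, 25 had a positive log2 fold change, beside 8402 of all 16023 genes, and their median was 1.37. Some of them are copies that may share reads, so the 27 are not separate observations. Gm2016 shares 75.2% of its 50-base words with Gm5662, and Usp17ld shares 50.4% with the marker Usp17lc. The list was also chosen with earlier results of these data known. In 11 of the 27 every S138A library lay above every wild-type library, beside 11.3% of all genes. None passed in edgeR without the block. At an unadjusted p under 0.05 in that test, 19 were higher and 0 lower, beside 1221 higher and 1049 lower among all 16023 genes. The block brought 21 of the 27 past the threshold as higher and none as lower, beside 10.7% and 9.13% of all genes. DESeq2 called 12 higher and 0 lower, beside 2.62% and 2.35% of all genes. Usp17le, a further deubiquitinating enzyme gene, had the smallest p of the list, with 4.36, 4.97 and 5.50 CPM in the wild-type libraries and 17.0, 17.8 and 9.14 CPM in the S138A libraries (log2 fold change 1.57, SE 0.28, adjusted p = 0.180; with the block adjusted p = 0.0103). Usp17ld had a fold change of 1.63 on the log2 scale (adjusted p = 0.191; with the block 0.00655) and Usp17la of 1.25 (adjusted p = 0.199; with the block 0.0275). Pramef25, a gene of the PRAME family, had 3.15, 4.68 and 2.04 CPM in the wild-type libraries and 10.2, 11.8 and 5.72 CPM in the S138A libraries (log2 fold change 1.49, adjusted p = 0.210; with the block 0.00398). Gm13119 had 1.37 (adjusted p = 0.210; with the block 0.00398) and Ubtfl1 1.39 (adjusted p = 0.224; with the block 0.0205).

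How far the genotypes differed in the smaller set varied among these genes. The interaction was called negative for 10 of the 27 genes and positive for 0, beside 1.8% and 1.18% of all genes. Usp17la differed by -1.46 (adjusted p = 0.0138), Usp17le by -1.17 (adjusted p = 0.024) and Ubtfl1 by -1.29 (adjusted p = 0.0417) on the log2 scale. Gm2016 has 18.7% of its 50-base words to itself and shares the rest with 20 other genes. It had 19.5, 20.7 and 9.54 CPM in the wild-type libraries and 74.4, 70.2 and 11.7 CPM in the S138A libraries, with an interaction of -1.55 (adjusted p = 0.00378). Pramef25 gave an interaction of -0.01 (SE 0.36, adjusted p = 0.990). Pramel7 and Pramel6 stood out after their values were seen. Pramel7 had 3.69, 4.49 and 5.79 CPM in the wild-type libraries and 8.32, 9.40 and 0.863 CPM in the S138A libraries, and Pramel6 had 2.09, 2.21 and 7.16 CPM against 2.41, 2.53 and 0.809 CPM. In S138A C both lay below all other libraries, while in wild-type 3 both lay above the other wild-type libraries. Klf17, a transcription factor of the state, had lower estimates in the S138A libraries (log2 fold change -0.50, SE 0.62, adjusted p = 0.761).

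**Figure D4:**
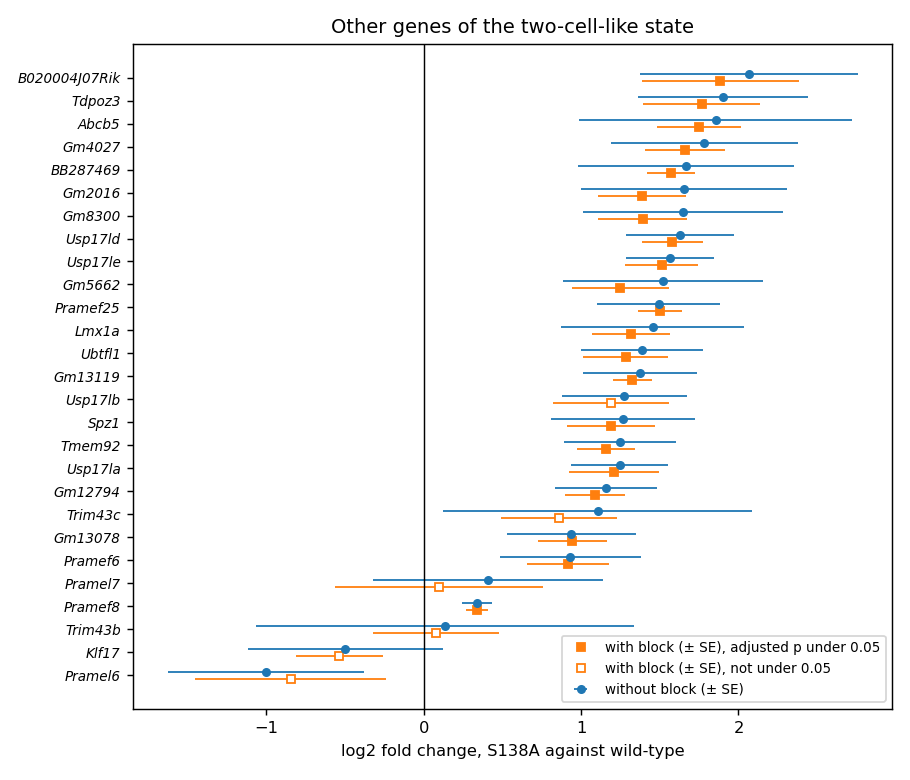
Log2 fold changes with SE of the 27 other tested genes of the state in S138A against wild-type ESCs, without the block (circles) and with it (squares, filled at an adjusted p under 0.05). Of the 27 genes 25 lie above 0, and 21 squares are filled.

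For 3 of the 6 tested activators of the state, Duxf3, Tbx3 and Nelfa, the lowest S138A library exceeded the highest wild-type one, beside 11.3% of all genes. Duxf3, the annotated copy of the Dux repeat array, whose product starts the program, had 1.57, 1.90 and 1.28 CPM in the wild-type libraries and 3.74, 4.13 and 2.80 CPM in the S138A libraries. It had a log2 fold change of 1.17 (SE 0.26, adjusted p = 0.191; with the block adjusted p = 0.00938; DESeq2 adjusted p = 0.00667). Its interaction was -0.06 (SE 0.31, adjusted p = 0.942). Of the 50-base words of Duxf3, 41.1% occur in no other gene, and the counts of the array copies are uncertain. Tbx3, a transcription factor tied to Zscan4 expression, had 145.7, 138.3 and 132.1 CPM in the wild-type libraries and 266.1, 254.4 and 187.4 CPM in the S138A libraries (log2 fold change 0.77, SE 0.15, adjusted p = 0.187; with the block 0.00592). Nelfa, which has been linked to DUX activity, had 0.39 (SE 0.12, adjusted p = 0.249; with the block 0.0218). Dppa2 and Dppa4, activators of Dux, had -0.01 (SE 0.37) and -0.17 (SE 0.18), and Trp53, which acts on Dux after DNA damage, had -0.16 (SE 0.23). Among the 6 tested activators of 10 listed, 3 were called higher and 0 lower with the block (Duxf3, Tbx3 and Nelfa), beside 10.7% and 9.13% of all genes. DESeq2 called 2 higher (Duxf3 and Tbx3), beside 2.62% of all genes. Obox1, Obox3 and Obox5 were near 0 CPM and did not pass the filter.

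Among 28 repressors of the state, all of which passed the filter, none was called without the block. Their median log2 fold change was -0.10. At an unadjusted p under 0.05 in edgeR, 1 was higher and 5 lower, beside 1221 higher and 1049 lower among all 16023 genes. With the block 7 were called lower and 1 higher (Ring1), beside 9.13% and 10.7% of all genes. All S138A libraries lay below all wild-type libraries for 5 of them, beside 10.9% of all genes, and above for 3, beside 11.3%. Sumo2, whose product represses the state in ESCs when attached to chromatin proteins, had the smallest p, with 586.7, 556.2 and 540.6 CPM in the wild-type libraries and 393.1, 368.2 and 330.4 CPM in the S138A libraries (log2 fold change -0.62, SE 0.10, adjusted p = 0.169; with the block 0.00436; DESeq2 8.04e-06). Sumo2 was the only repressor that DESeq2 called, beside 2.35% of all genes called lower. The PRC1.6 subunits Rnf2, Pcgf6 and Mga had -0.41, -0.32 and -0.31, with block adjusted p of 0.0105, 0.0218 and 0.0254. L3mbtl2 (-0.11), Max (-0.07), E2f6 (0.04) and Rybp (0.08), which also belong to PRC1.6 complexes, were not called, with block adjusted p of 0.269, 0.494, 0.655 and 0.55. Ring1, the paralog of Rnf2, had 0.38 (adjusted p = 0.319; with the block 0.0471). Rif1, Ncl and Hdac2 were called lower with the block as well. Trim28, Setdb1, Kdm1a and the CAF-1 subunits Chaf1a and Chaf1b had log2 fold changes from -0.19 to 0.12 and were not called in either fit. Ehmt1 had -0.23 (adjusted p = 0.336; with the block 0.0773).

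**Figure D5:**
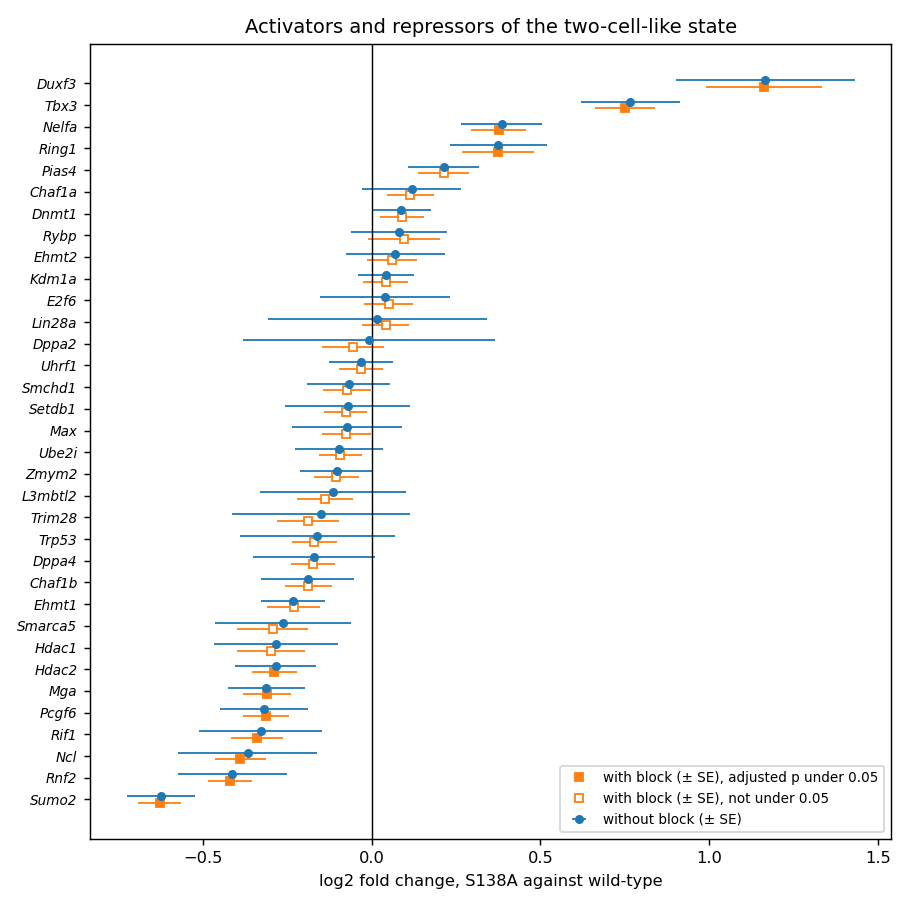
Log2 fold changes with SE of the 6 tested activators and 28 repressors in S138A against wild-type ESCs, without the block (circles) and with it (squares, filled at an adjusted p under 0.05). Duxf3 and Tbx3 lie farthest above 0, and Sumo2 and Rnf2 farthest below it.

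Markers of other cell types also differed between libraries, and their part in the results above was not tested. A negative interaction estimate was not particular to the two-cell-like genes. It was found for all 6 tested trophoblast markers (-0.94 for Krt8 on the log2 scale) and 5 of 6 fibroblast markers (-1.72 for Col1a1). Of the germ cell markers 2 of 5 were negative, and of the 7 primitive endoderm markers none. The 7 trophoblast markers summed to 477.7 to 528.3 CPM in the wild-type libraries and to 738.6, 788.2 and 410.7 CPM in S138A A, B and C. S138A A and B were the highest here too, but S138A C lay below wild-type 3, unlike for the summed two-cell-like genes. Of the 6 tested, 2 (Krt7 and Cdx2) were called higher and 1 (Tfap2c) lower with the block, beside 10.7% and 9.13% of all genes, and Elf5 had 1 to 7 counts in each library. Krt7 had a fold change of 1.11 on the log2 scale (adjusted p = 0.169; with the block 0.00582). The 8 fibroblast markers summed to 43.0 to 72.6 CPM in the wild-type libraries and 79.2 to 115.4 CPM in the S138A libraries. Col1a1, Col3a1 and Thy1 were called higher with the block, of 6 tested, beside 10.7% of all genes. Col1a2 (log2 fold change -0.26), Pdgfrb (0.40) and Postn (0.37) were not called. The defining markers Lum and Dcn had at most 1 and 5 counts in any library. The 7 primitive endoderm markers summed to 91.0 to 100.5 CPM in the wild-type libraries and 75.8 to 86.4 CPM in the S138A libraries, and most of the sum was Lama1, which was called lower with the block (73.2 to 79.9 CPM against 54.7 to 58.6 CPM, log2 fold change -0.43, block adjusted p = 0.0128). The median log2 fold change of the 7 was 0.16, and 4 of them (Gata4, Sox7, Pdgfra and Dab2) had positive estimates that were not called. The 5 germ cell markers summed to 140.9 to 170.5 CPM in the wild-type libraries and 163.7 to 188.9 CPM in the S138A libraries, and Stra8 was called higher with the block.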

How the data were processed

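PolyA RNA of 3 wild-type and 3 S138A libraries was analysed. According to the submitters' processing notes, the authors used CASAVA version 1.8.4, TopHat2 version 2.0.11 on mm9 (NCBIM37) and featureCounts, and deposited raw counts per gene. Library preparation kept the strand, and counting settings are not given in the sources used here. Symbols were matched for 32897 genes (87.4%). The markers, gene lists and library sets were chosen with earlier results of these data known. All 10 markers, up to 6 genes with the smallest p of each list, Ube2d3 and the 8 genes of most similar pattern are named, and others where stated.

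Genes were kept by filterByExpr (minimum count 10, minimum total 15), scaled by TMM and tested with edgeR version 4.0.16 (R version 4.3.3) by quasi-likelihood, with Benjamini-Hochberg adjustment over 16023 genes. SE was taken as the size of the estimate over the root of its F statistic. DESeq2 version 1.42.0 and limma version 3.58.1 were alternatives, and Python version 3.11.15 read the sequences. S138A columns carry no replicate number, and A, B and C stand for their final digits 1, 2 and 3. With those digits the deviations from the group means correlated at 0.53, 0.493 and 0.753, so that the column names were taken to pair the libraries, although crossing 1 and 2 gave 0.515 and 0.526. Sampling noise was judged on the counts of replicate pairs. On simulated data with 50 genes changed at each size, edgeR found 14 of those changed 2-fold and 37 of those changed 4-fold, and made 4 false calls over 15829 genes (16, 34 and 7 with the block). DESeq2 made 48 false calls. In the simulation the block changed the counts little, whereas in the data it raised the calls over all genes from 0 to 3180. Simulated rates, also those of the interaction test, therefore need not hold for the libraries analysed here. The interaction test found 5 of 50 at a 4-fold change and 24 at 8-fold and made 0 false calls over 15846 genes.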

Additional observations from a re-analysis of the deposited data

Results flagged for a closer look

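The interaction of genotype with library set was flagged for some of the markers, and the shares of all genes called in that fit are given above. On the log2 scale the effect in wild-type 3 and S138A C minus that in the other 4 libraries was -0.82 for Zscan4c, -1.13 for Zscan4d and -1.66 for Usp17lc. Among the other genes of the state the same difference was called for Usp17la (-1.46), Usp17lb (-1.97), Usp17le (-1.17), Ubtfl1 (-1.29), Trim43c (-2.35), Gm2016 (-1.55), Gm5662 (-1.71), Gm8300 (-1.56), Pramel6 (-3.34) and Pramel7 (-3.86). Among the repressors it was called for Trim28 (-0.41) and, with a positive sign, for Rybp (0.49). In this fit each genotype had 1 library in the smaller set, and the sets were defined from these data. The smaller genotype difference of the markers in that set was also known beforehand, so the calls are no independent support. Not every call is a smaller difference. In log2 CPM, S138A C minus wild-type 3 was -3.06 for Pramel6, -2.67 for Pramel7, -0.46 for Trim28 and 0.42 for Rybp. For each of these genes that exceeds both other pairs in size. The spread of the fit came only from pairs of libraries that are close to each other. Its p-values therefore do not cover differences as large as those of wild-type 3 or S138A C from the rest.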

How the results depend on the processing

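In all 6 libraries, with neither the block nor the library-set term, edgeR called 0 genes of any list. The count over all genes was 4 with no filter beyond 1 count, 797 with DESeq2, 3180 with the replicate block, 4418 with the library-set term and 4756 in the 4 libraries alone. In the same order from DESeq2 on, the count was 1, 7, 7 and 8 for the markers, 12, 21, 22 and 24 for the other genes of the state, 1, 8, 9 and 10 for the repressors and 2, 3, 4 and 3 for the activators. Leaving out each library in turn gave 0 to 79 calls over all genes, 0 to 1 for the markers, 0 to 8 for the other genes, 0 to 1 for the activators and 0 for the repressors. Counts above 0 came without S138A C. Without S138A C the log2 fold changes of the markers were the highest of these fits, at 2.34 for Tdpoz4 and 2.11 for Usp17lc. Every marker kept a positive log2 fold change under each alternative, from 0.25 for Sp110 without S138A B upward. RLE and upper-quartile factors, both other filters, limma-voom and summed families moved no marker past the threshold. The replicate block changed the call of 7 markers and not that of Sp110. The interaction estimates of all 8 markers were negative under RLE and upper-quartile factors, both other filters, DESeq2 and limma-voom. These alternatives were added after seeing the data, and all take their spread from the same close pairs of libraries. Summing Tcstv rows was not run, since no row matched.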
